A study of Mus musculus with 12 samples.

Results

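Principal cells are the sodium- and water-transporting cells of the connecting tubule and collecting duct, and 10 genes that mark their transport were examined among the 27412 gene IDs of the deposited count table. The genes were chosen by symbol for their known roles. All 10 had an Ensembl gene ID in the table and all 10 passed the filter on low counts. They comprise Scnn1a, Scnn1b and Scnn1g, Avpr2, Aqp2, Aqp3 and Aqp4, Fxyd4, Krt7 and Gata3.

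In principal cells sodium enters from the urine through the epithelial sodium channel, which is built from an α, a β and a γ subunit and is under the control of aldosterone. Vasopressin acts on its receptor on the basolateral side, and the rise in cyclic AMP that follows moves the water channel aquaporin-2 to the apical membrane and raises transcription of its gene. Water then leaves the cell through aquaporin-3 and aquaporin-4 on the basolateral side, and sodium through the sodium pump.

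RNA was taken from thin slices of outer kidney cortex of male C57BL/6 mice. The TG+ animals, numbered 17-51, 17-53 and 17-56, carried the transgene γ-HIF2αM3, also written GGT-HIF2aM3. HIF2α is a hypoxia-inducible transcription factor, and γ-glutamyl transferase (GGT), for which the transgene is named, is an enzyme of proximal tubule cells and not of principal cells. The WT animals, numbered 1, 2 and 3, were wild type, no animal was treated, and the sources used here give no ages. Each genotype had 3 animals with 2 kidneys each, so 12 libraries were made, and the comparison asks how the cortex transcriptome differs between the genotypes. All TG+ animals share the prefix 17, and whether it stands for a single transgenic line is not given, so that line or insertion site and the transgene cannot be told apart.

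Summed over the kidneys of an animal, counts ran from 32392033 to 85018818 in TG+ animals and from 51309463 to 66566563 in WT animals. Kidney 2 of TG+ 17-51 was the shallowest library with 4161829 counts, the next having 24032148. Epas1, which encodes HIF2α, stood at 267 ± 16.7 CPM in TG+ and 204 ± 30.9 CPM in WT animals (SD, n = 3 each), and its log2 fold change, 0.39 ± 0.11 (SE), was not called (edgeR adjusted p = 0.0881). CPM are read counts scaled to the library total with TMM factors, which correct for library composition. All differences are TG+ over WT, tested with the two-sided quasi-likelihood test of edgeR on 3 against 3 animals, adjusted over 19564 genes and called at an adjusted p under 0.05.

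Of the 10 genes, 4 fell in TG+ cortex, none rose and 6 did not pass. The 4 were Scnn1a, Krt7, Avpr2 and Aqp3. The count was 0 without TG+ 17-51 or TG+ 17-53, 1 without TG+ 17-56 or WT 3, and 2 without kidney 1 of TG+ 17-53, of TG+ 17-56 or of WT 2. Over all genes tested 3.75% were called, 1.82% lower and 1.93% higher. The log2 fold change was negative in 9 of the 10 genes, and in 49.1% of all genes. In 7 of the 10 genes every TG+ animal was below every WT animal, as it was in 16.5% of all genes, and in Aqp4 every TG+ animal was above every WT animal, as in 15.5% of all genes. The median log2 fold change of the 10 genes was -0.31, against 0.005 over all genes, and 9.14% of all genes had a value at or below that median. Summed over the 10 genes, the animals had 381 to 451 CPM in TG+ and 559 to 631 CPM in WT.

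**Figure D1:**
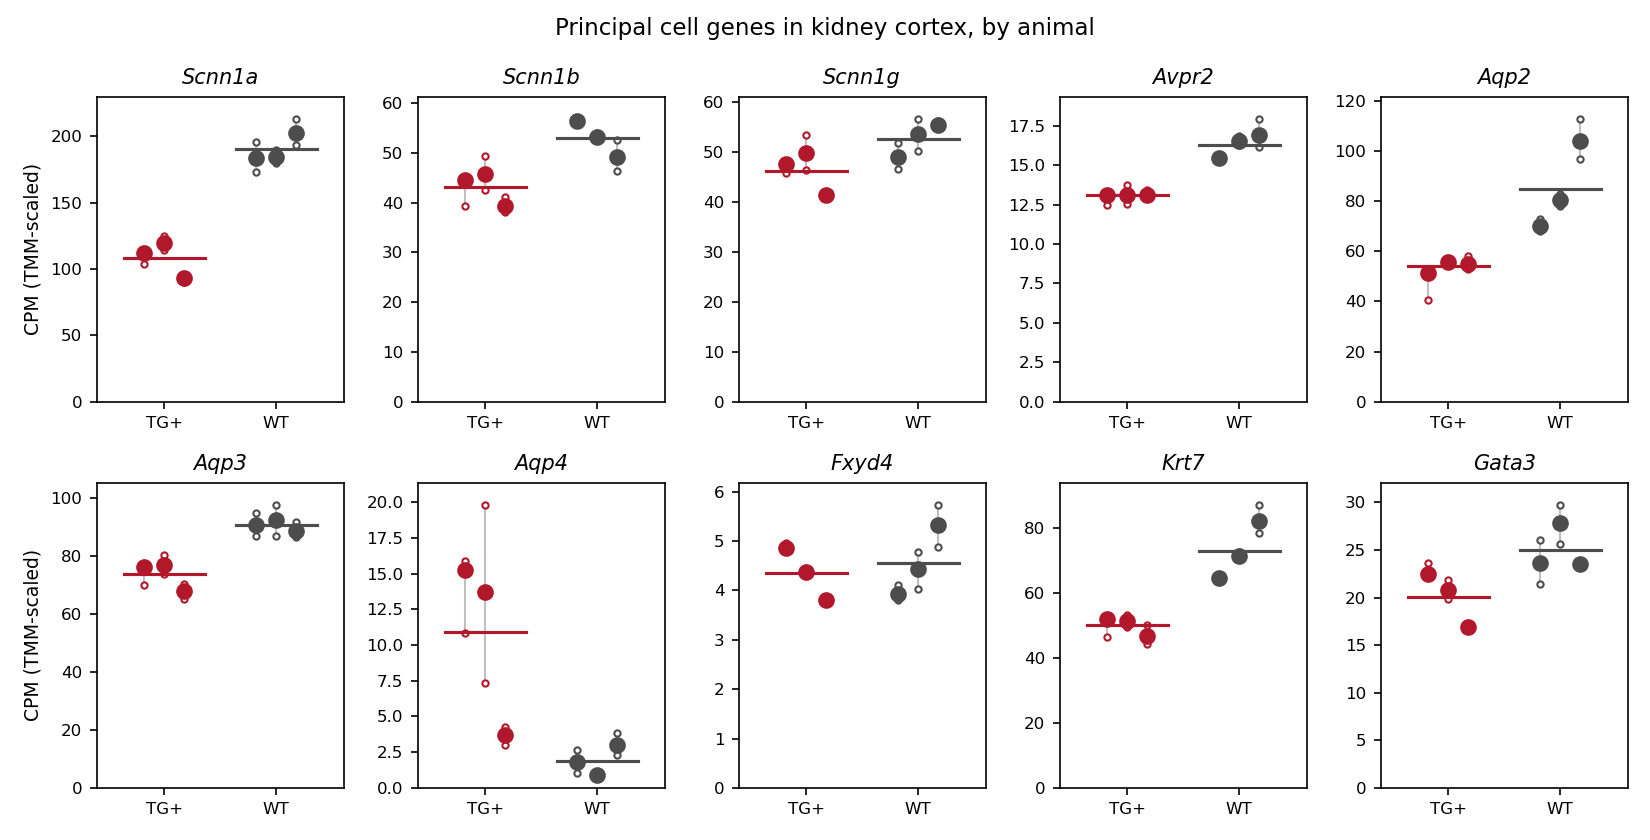
CPM (vertical axes, each starting at 0) of the 10 genes in TG+ (red) and WT (grey) animals. Filled circles are animals in numerical order with both kidneys summed, small open circles joined by a line are the single kidneys, and horizontal bars are means over 3 animals. The 3 TG+ values of Scnn1a, from 92.9 to 119.6 CPM, lie below all WT values, and those of Fxyd4 lie among the WT values.

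The window around the start of a gene, from 250 bases before to 50 after it, was read for 8 of the 10 genes from RefSeq (build GRCm38.p6). No window was read for Scnn1a or Aqp4, so nothing is said of their sites. Aqp2 and Krt7 are shown because Krt7 was the gene whose pattern over the 12 libraries was closest to that of Aqp2. Capitals mark matches on either strand to the core of a hypoxia response element, searched as ACGTG or GCGTG, and to the core of a GATA site, searched as AGATAA or TGATAA.
Aqp2, chr15:99578806-99579105, plus strand: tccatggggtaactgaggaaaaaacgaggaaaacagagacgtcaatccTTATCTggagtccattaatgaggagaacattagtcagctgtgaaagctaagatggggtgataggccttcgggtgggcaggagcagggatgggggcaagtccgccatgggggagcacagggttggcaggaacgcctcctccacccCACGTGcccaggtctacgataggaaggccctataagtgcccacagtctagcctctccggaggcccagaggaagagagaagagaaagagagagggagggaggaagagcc
Krt7, chr15:101412153-101412452, plus strand: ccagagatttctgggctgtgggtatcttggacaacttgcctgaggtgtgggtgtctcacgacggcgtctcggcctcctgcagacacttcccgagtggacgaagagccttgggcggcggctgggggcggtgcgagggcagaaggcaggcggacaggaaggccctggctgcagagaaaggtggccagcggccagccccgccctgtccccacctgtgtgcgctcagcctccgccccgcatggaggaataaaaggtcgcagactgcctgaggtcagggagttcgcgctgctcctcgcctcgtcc
The Aqp2 window held 1 GATA core, at position -202 from the start in reverse complement, and the palindrome CACGTG, in which the hypoxia core is read on both strands, at -58 and -57, with overlapping letters. The windows of the other 7 genes (Scnn1b, Scnn1g, Avpr2, Aqp3, Fxyd4, Krt7 and Gata3) held neither. Of all 32851 windows in the RefSeq table, 43.8% held the hypoxia core and 18.6% the GATA core. The letters TGACG, part of a cyclic AMP response element, were found in the Aqp2 window at -211 (20.8% of all windows). AGAACA, a steroid receptor core, was found in the window of Aqp2, at -179, and of Avpr2, at -59 and -50 (19.0% of all windows). AACCGG or AACCTG, the core of a Grainyhead site, was found in none of the 8 (21.4% of all windows).

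The α subunit gene of the sodium channel had the smallest p of the 10. Scnn1a was at 112, 119.6 and 92.9 CPM in TG+ 17-51, 17-53 and 17-56, and at 183, 185 and 202 CPM in WT 1, 2 and 3. The groups were far apart, with 63.8 CPM between the highest TG+ and the lowest WT animal, and 17-56 was the lowest of all. The log2 fold change was -0.81 ± 0.10 (SE, edgeR adjusted p = 0.0143), so that the level fell by 43.1%. In cortex slices, fewer cells of a type and less RNA per cell cannot be told apart. The call was lost without TG+ 17-51 (adjusted p = 0.0597) and without TG+ 17-53 (adjusted p = 0.0628), and kept with each of the other 4 animals or any of the 12 libraries left out.

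The β and γ subunit genes did not pass. Scnn1b was at 44.5, 45.9 and 39.3 CPM in TG+ animals 17-51, 17-53 and 17-56 and at 56.4, 53.2 and 49.3 CPM in WT 1, 2 and 3. The groups did not overlap, and the log2 fold change was -0.29 ± 0.08 (SE, edgeR adjusted p = 0.0757). Scnn1g was at 47.7, 49.8 and 41.4 CPM in the same TG+ animals, against 49.0, 53.6 and 55.4 CPM in WT. Its groups overlapped, TG+ 17-53 being above WT 1, and the log2 fold change was -0.19 ± 0.08 (SE, edgeR adjusted p = 0.208). DESeq2 called Scnn1b (adjusted p = 0.0203) and not Scnn1g (adjusted p = 0.224).

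The ratios of the subunits within an animal did not overlap between genotypes. Scnn1a is the denominator of both, so its fall enters both, and they are not evidence apart from the values above. The share of other gene pairs without overlap was not computed. Reads of Scnn1g per read of Scnn1a were 0.426, 0.417 and 0.446 in TG+ 17-51, 17-53 and 17-56 and 0.267, 0.291 and 0.274 in WT 1, 2 and 3. Reads of Scnn1b per read of Scnn1a were 0.398, 0.383 and 0.423 in TG+, against 0.307, 0.288 and 0.244 in WT. Both ratios were higher in every TG+ animal than in any WT animal, by 0.63 and 0.53 on the log2 scale. In an exact two-sided permutation test over animals each gave p = 0.1 (adjusted p = 0.18 over the 9 ratios tested), and p = 0.1 is the smallest that 3 against 3 animals allow. Such a ratio is one of reads, not of molecules, and only its change between genotypes is read here.

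The receptor gene Avpr2 fell by a small amount. It was at 13.1 CPM in each of the 3 TG+ animals (mean 13.1 ± 0.0187, SD) and at 15.4, 16.6 and 16.9 CPM in WT 1, 2 and 3. Single TG+ kidneys ran from 12.5 to 13.7 CPM. The SD between the kidneys of an animal, 0.0651 log2 units, was above that between TG+ animals, 0.00204. The closeness of the 3 TG+ animals is therefore not read as a trait of the gene. The groups did not overlap, the log2 fold change was -0.31 ± 0.06 (SE, edgeR adjusted p = 0.0431) and the level fell by 19.5%. Exons of Avpr2 overlap those of Arhgap4 on the opposite strand. Arhgap4 had a log2 fold change of -0.24 ± 0.06 (SE, edgeR adjusted p = 0.0664), and the strand setting of the counting is not stated, so reads of these genes may be mixed. The Avpr2 call was kept without WT 2 (adjusted p = 0.0482) and lost without WT 1 (0.0775), WT 3 (0.1), TG+ 17-51 (0.106), TG+ 17-53 (0.150) or TG+ 17-56 (0.0984). It was also lost with scaling by library size alone (0.0613), in kidney 1 alone (0.051), in kidney 2 alone (0.148) and in limma on RPKM (0.0891 with a pseudocount of 0.1 and 0.0906 with 1). Of single libraries it was lost without kidney 2 of WT 1 (0.0561), kidney 1 of WT 2 (0.0533), kidney 1 of WT 3 (0.0518), kidney 1 of TG+ 17-53 (0.0573) or kidney 1 of TG+ 17-56 (0.0598), all as adjusted p.

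The aquaporin genes went different ways. Aqp2, the vasopressin-regulated apical channel, was at 51.4, 55.6 and 55.1 CPM in TG+ 17-51, 17-53 and 17-56 and at 70.2, 80.6 and 104 CPM in WT 1, 2 and 3. The TG+ animals were close together and below all WT animals, while WT values spread widely with WT 3 highest. The log2 fold change of Aqp2 was -0.65 ± 0.14 (SE), just short of the threshold (edgeR adjusted p = 0.0510). It passed in DESeq2 (adjusted p = 0.000137), with a filter of 1 CPM (0.0499), in kidney 1 alone (0.0487) and without WT 1 (0.0457). Among single libraries it passed without kidney 2 of WT 1 (0.0496), kidney 2 of WT 2 (0.0388), kidney 1 of WT 3 (0.0406), kidney 2 of TG+ 17-53 (0.0497) or kidney 2 of TG+ 17-56 (0.0459).

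Aqp3, a basolateral channel that also conducts glycerol, was at 76.0, 77.0 and 67.8 CPM in TG+ 17-51, 17-53 and 17-56, against 90.45, 92.3 and 88.6 CPM in WT 1, 2 and 3. The groups did not overlap, with 11.6 CPM between them, and TG+ 17-56 was again the lowest. Its log2 fold change was -0.30 ± 0.06 (SE, edgeR adjusted p = 0.0453) and the level fell by 18.7%. The Aqp3 call was lost without any 1 animal, with adjusted p = 0.110 without WT 1, 0.0506 without WT 2, 0.0865 without WT 3, 0.0968 without TG+ 17-51, 0.125 without TG+ 17-53 and 0.0852 without TG+ 17-56. It was also lost with scaling by library size alone (0.0663), in kidney 2 alone (0.134) and in limma on RPKM (0.0823 with a pseudocount of 0.1 and 0.0841 with 1). Of single libraries it was lost without kidney 1 (0.0527) or 2 (0.0501) of WT 1, kidney 1 of WT 2 (0.0677) or WT 3 (0.0568), kidney 2 of TG+ 17-51 (0.0534), kidney 1 of TG+ 17-53 (0.0680) or kidney 1 of TG+ 17-56 (0.0697).

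Aqp4, the other basolateral channel, which in the mouse is also made by cells of the proximal straight tubule, had the opposite sign. It was at 15.3, 13.7 and 3.69 CPM in TG+ 17-51, 17-53 and 17-56, against 1.82, 0.870 and 3.01 CPM in WT 1, 2 and 3. The groups did not overlap, yet TG+ 17-56 lay just above WT 3. The log2 fold change was 2.51 ± 0.63 (SE) and did not pass (edgeR adjusted p = 0.0776), though DESeq2 called it (adjusted p = 0.0119). It rests on 1883 reads in TG+ and 344 in WT animals, and single kidneys ran from 2.98 to 19.8 CPM in TG+ and from 0.806 to 3.84 CPM in WT. Kidney 2 of TG+ 17-56, at 2.98 CPM, lay below kidney 1 of WT 3, at 3.84 CPM, so the libraries overlapped. The reads of Aqp4 per read of Aqp3 were higher in every TG+ animal, by 2.75 on the log2 scale (exact permutation p = 0.1, adjusted p = 0.18).

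Krt7, a keratin gene of the collecting duct epithelium, was at 52.1, 51.4 and 46.8 CPM in TG+ 17-51, 17-53 and 17-56, against 64.7, 71.6 and 82.4 CPM in WT 1, 2 and 3. The groups did not overlap, and WT 3 was the highest, as for Aqp2. The log2 fold change was -0.54 ± 0.09 (SE, edgeR adjusted p = 0.0302) and the level fell by 31.3%. Exons of Krt7 overlap those of Gm671 on the opposite strand, so some of its reads may belong to that gene. The call was kept with any of the 12 libraries left out and without WT 1 or WT 2. It was lost without WT 3 (adjusted p = 0.0539), TG+ 17-51 (0.0865), TG+ 17-53 (0.116) or TG+ 17-56 (0.0792), and in limma on RPKM (0.0611 with a pseudocount of 0.1 and 0.0667 with 1).

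The remaining members were a transcription factor and a pump subunit. Gata3, a zinc finger factor needed for the formation of the collecting system, was at 22.5, 20.8 and 16.9 CPM in TG+ 17-51, 17-53 and 17-56, against 23.6, 27.8 and 23.6 CPM in WT. The groups were separated by 1.09 CPM, and the log2 fold change of -0.32 ± 0.12 (SE) did not pass (edgeR adjusted p = 0.148). Exons of Gata3 overlap those of Gm13256 (opposite strand) and 9230102O04Rik (same strand), both under 2 CPM on average, so its count is uncertain. Fxyd4, a small membrane protein that modulates the sodium pump in the collecting duct, was at 4.86, 4.37 and 3.81 CPM in the TG+ animals and at 3.94, 4.44 and 5.32 CPM in WT. These groups overlapped, with a log2 fold change of -0.08 ± 0.14 (SE, edgeR adjusted p = 0.773).

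**Figure D2:**
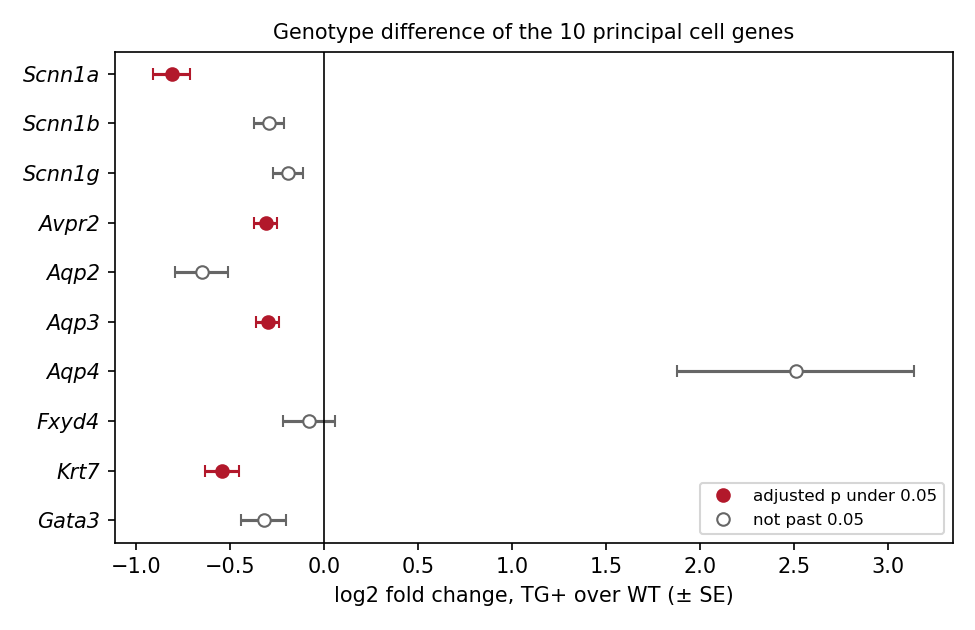
Log2 fold change of TG+ over WT animals (horizontal axis, bars ± SE) for the 10 genes, with filled red circles for an adjusted p under 0.05 and open circles otherwise. Of the 10 genes 9 lie left of 0, from -0.81 to -0.08, and Aqp4 lies at 2.51.

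Set against Aqp2 within each animal, Fxyd4 and Avpr2 were relatively higher in TG+. Reads of Fxyd4 per read of Aqp2 were 0.0946, 0.0786 and 0.0692 in TG+ 17-51, 17-53 and 17-56 and 0.0561, 0.0551 and 0.0511 in WT 1, 2 and 3, a difference of 0.57 on the log2 scale. Avpr2 to Aqp2 differed by 0.32, and both ratios had no overlap between genotypes (exact permutation p = 0.1 each, adjusted p = 0.18). The ratios of Aqp3, Krt7 and Gata3 to Aqp2, and of Aqp2 to Scnn1a, overlapped between genotypes, with differences of 0.33, 0.10, 0.31 and 0.19 and exact permutation p = 0.2, 0.4, 0.4 and 0.4 (adjusted p = 0.3 and, for the last 3, 0.4). Without WT 3 the difference was 0.19 for Avpr2, 0.16 for Aqp3, 0.03 for Krt7 and 0.11 for Gata3, each to Aqp2, and 0.30 for Aqp2 to Scnn1a. Without TG+ 17-51 it was 0.03 for Krt7 and 0.19 for Gata3 to Aqp2, without TG+ 17-56 it was 0.16 for Krt7 to Aqp2 and 0.06 for Aqp2 to Scnn1a, and without WT 1 the last was 0.08.

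Per length, the order of the 10 genes was the same in both genotypes. In the authors' RPKM, which are scaled to gene length and library size, averaged over the kidneys of an animal, Aqp2 was highest with 34.0 ± 3.38 RPKM in TG+ and 53.8 ± 10.6 RPKM in WT animals (SD, n = 3 each). Aqp3 followed with 30.7 ± 1.99 RPKM in TG+ and 37.4 ± 1.62 RPKM in WT, and Scnn1a with 13.99 ± 1.77 RPKM in TG+ and 24.3 ± 1.14 RPKM in WT. Aqp2 and Aqp3 overlapped in TG+ animals and did not in WT animals. Scnn1b and Scnn1g came next, with 7.81 ± 0.579 and 7.05 ± 0.646 RPKM in TG+ animals and 9.50 ± 0.700 and 7.87 ± 0.543 RPKM in WT animals. They overlapped in TG+ and not in WT. Krt7, Fxyd4, Gata3 and Avpr2 lay between 4.85 and 2.00 RPKM in TG+ and between 6.997 and 2.44 RPKM in WT. Among these the animals of Fxyd4 and Gata3 overlapped in WT, as did those of Krt7 and Scnn1g. Aqp4 was last, with 0.846 ± 0.471 RPKM in TG+ and 0.157 ± 0.0852 RPKM in WT.

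The kidneys of an animal gave similar values. The SD between the kidneys of an animal was 0.0651 to 0.137 log2 units for 9 of the genes and 0.635 for Aqp4. With the animal as a block, none of the 10 genes passed between kidney 2 and kidney 1 (edgeR, calls in 0.0936% of all 18164 genes). At an unadjusted p under 0.05 stood 3 of the 10, against 8.57% of all genes. Aqp4 was lower in kidney 2 in 5 of 6 animals, by a log2 fold change of -0.91 ± 0.19 (SE, edgeR adjusted p = 0.195). For a kidney difference that depends on genotype none of the 10 genes passed (edgeR, calls in 0% of all genes). At an unadjusted p under 0.05 stood 1 of the 10, Gata3, against 2.94% of all genes.

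The genes most like Scnn1a and Aqp2 over the 12 libraries were found by the mean absolute difference of log2 CPM after each gene was centred on its own mean, among 11885 other genes with a mean of at least 5 CPM. These genes were picked for their likeness, so their values are a description. For Scnn1a they were Klk1b9 (mean absolute difference 0.0856 log2 units), Tmem151a (0.0915), Klk1b5 (0.0954), Creld2 (0.101) and Klk1b21 (0.107). The log2 fold changes of these 5 lay between -0.86 for Creld2, an endoplasmic reticulum protein gene, and -0.70 for Klk1b9. Klk1b9, Klk1b5 and Klk1b21 are tissue kallikrein genes of a family with near-identical copies, so their counts are uncertain. For Aqp2 they were Krt7 (0.106), the glypican gene Gpc1 (0.110), Pcolce (0.121), Gm15590 (0.138) and Mettl7b (0.143), with log2 fold changes from -0.81 for Gpc1 to -0.41 for Mettl7b. Exons of Gpc1, Pcolce, Gm15590 and Mettl7b overlap those of other genes, so their counts are uncertain.

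Genes that regulate the sodium channel were next examined as a list of 17 genes of aldosterone signalling and channel regulation. None passed in edgeR, and 6 of 17 had an unadjusted p under 0.05, as had 24.9% of all genes. DESeq2 called 3 of the 17 lower and 1 higher, against 5.5% lower and 6% higher over all genes. The list median was -0.15. Nedd4, a ubiquitin ligase gene related to the one that removes the channel from the membrane, had the smallest p, with 471 ± 16.3 CPM in TG+ and 394 ± 12.3 CPM in WT (SD, n = 3 each) and a log2 fold change of 0.26 ± 0.06 (SE, edgeR adjusted p = 0.0599). Nr3c2, the mineralocorticoid receptor gene, had a log2 fold change of 0.08 ± 0.09 (SE), and Hsd11b2, whose enzyme shields that receptor from glucocorticoids, one of -0.49 ± 0.13 (SE, edgeR adjusted p = 0.0830). Nr3c2 and Hsd11b2 were named after their values were seen.

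In the list of potassium channels and sodium pump subunits of the principal cell, 1 of 8 tested genes rose, 1 fell and 6 did not pass, with a median of -0.25. Over all genes 1.93% were called higher and 1.82% lower. Kcnj10, a basolateral potassium channel gene of the distal nephron, fell to 60.6 ± 6.10 CPM in TG+, against 85.8 ± 4.94 CPM in WT (SD, n = 3 each), a log2 fold change of -0.50 ± 0.08 (SE, edgeR adjusted p = 0.0286). Kcnma1, the flow-activated potassium channel gene, rose to 1.55 ± 0.127 CPM in TG+, against 0.818 ± 0.0930 CPM in WT, a log2 fold change of 0.91 ± 0.17 (SE, edgeR adjusted p = 0.0362). Kcnma1 overlaps a gene on the opposite strand.

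Of 19 genes of vasopressin signalling and aquaporin trafficking, 1 rose, 1 fell and 17 did not pass, with a median of 0.03. The shares over all genes were again 1.93% higher and 1.82% lower. Rab11fip2, whose protein takes part in recycling of aquaporin-2 vesicles, rose to 40.45 CPM in TG+, against 33.5 CPM in WT (log2 fold change 0.27 ± 0.06, SE, edgeR adjusted p = 0.0492). Hspa5, an endoplasmic reticulum chaperone gene, fell, with a log2 fold change of -0.51 ± 0.09 (SE, edgeR adjusted p = 0.0295).

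The families of the members gave few calls, and their counts at an unadjusted p under 0.05 are to be read against the 24.9% of all genes. Of 5 other aquaporin genes tested none passed (2 at an unadjusted p under 0.05, 0 in DESeq2), Aqp11 having the smallest p with a log2 fold change of -0.15 ± 0.05 (SE). Of 5 other FXYD genes none passed (1 at an unadjusted p under 0.05, 1 lower in DESeq2), the smallest p being that of Fxyd2, the pump's γ subunit gene (-0.26 ± 0.07). Of 5 other keratin genes of simple epithelia none passed (1 at an unadjusted p under 0.05, 0 in DESeq2), with Krt8 at -0.20 ± 0.08. Among 14 other transcription factor genes of the collecting duct and its precursors 3 fell, none rose and 11 did not pass, with a median of -0.31. Calls over all genes were 1.82% lower and 1.93% higher. Tfcp2l1, a factor of collecting duct cells, fell to 442 ± 28.5 CPM in TG+, against 655 ± 99.95 CPM in WT (SD, n = 3 each). Its log2 fold change was -0.57 ± 0.11 (SE, edgeR adjusted p = 0.0431), and it overlaps Gm23497 on the same strand. Emx1 and Gata2 fell by 0.44 ± 0.09 and 0.66 ± 0.13 on the log2 scale (SE, edgeR adjusted p = 0.0445 and 0.0479).

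**Figure D3:**
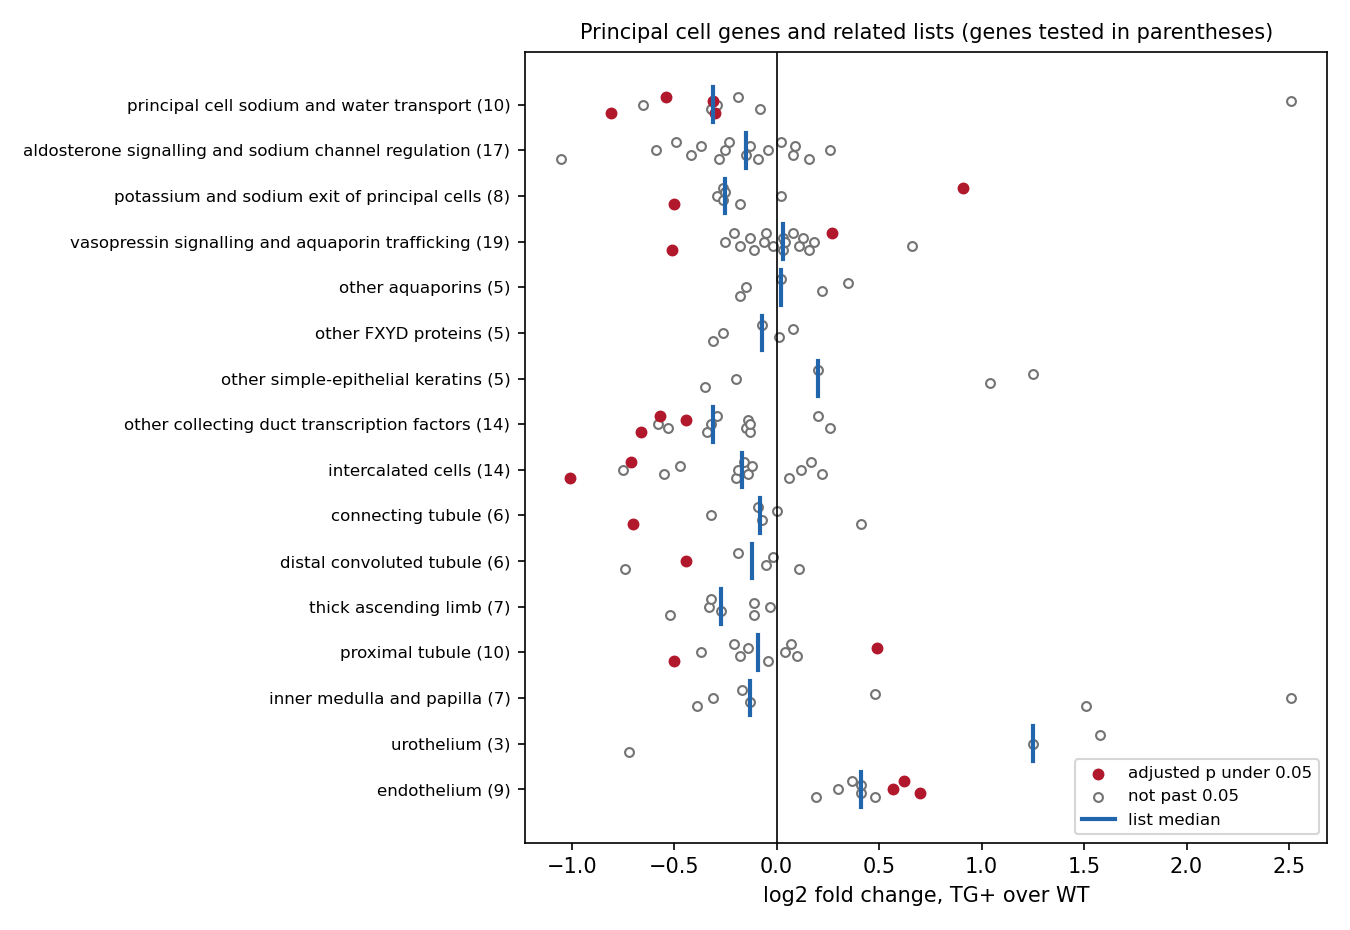
Log2 fold change of TG+ over WT (horizontal axis) of each tested gene in the 10 principal cell genes and 15 related lists, with filled red circles for an adjusted p under 0.05, open circles otherwise and blue bars for list medians. The principal cell genes and the other collecting duct factors share a median of -0.31, and all 9 endothelial genes lie right of 0.

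Markers of neighbouring cell types were measured beside these genes, and their part in the falls of Scnn1a, Krt7, Avpr2 and Aqp3 was not tested. Their calls are to be read against 1.82% of all genes called lower and 1.93% called higher. Of 14 intercalated cell markers 2 fell, none rose and 12 did not pass (median -0.17), their summed level being 508 to 671 CPM in TG+ and 678 to 778 CPM in WT. Rhcg, an ammonia channel gene, and Foxi1, the transcription factor gene of these cells, had log2 fold changes of -0.71 ± 0.14 and -1.01 ± 0.19 (SE, edgeR adjusted p = 0.0428 and 0.0432). Of 6 connecting tubule markers 1 fell (median -0.08), Klk1, which encodes tissue kallikrein (-0.70 ± 0.14, SE, edgeR adjusted p = 0.0452), with sums of 2512 to 2800 CPM in TG+ and 2912 to 3528 CPM in WT. Of 6 distal convoluted tubule markers Emx1 alone fell (median -0.12), the same gene counted above among the collecting duct factors, with sums of 1302 to 1461 CPM in TG+ and 1296 to 1712 CPM in WT.

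Of 7 thick ascending limb markers none passed (edgeR, 4 at an unadjusted p under 0.05, against 24.9% of all genes, and 1 lower in DESeq2), all 7 had negative values, and the median was -0.27. Umod, the uromodulin gene, had the smallest p (-0.52 ± 0.11, SE, edgeR adjusted p = 0.0512), and sums were 3194 to 3452 CPM in TG+ and 3690 to 4749 CPM in WT. Of 10 proximal tubule markers 1 rose and 1 fell (median -0.09), the lactate transporter gene Slc5a12 (0.49 ± 0.10) and the organic anion transporter gene Slc22a6 (-0.50 ± 0.11), with sums of 13640 to 15490 CPM in TG+ and 15650 to 16900 CPM in WT. Of 9 endothelial markers 3 rose, Kdr (0.70 ± 0.12), Erg (0.62 ± 0.12) and Emcn (0.57 ± 0.12), none fell and the median was 0.41, with sums of 632 to 656 CPM in TG+ and 416 to 573 CPM in WT. Over all genes 1.93% were called higher and 1.82% lower.

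Markers of the urothelium and of the inner medulla were measured too, and their part in the values of Aqp4 was not tested. Of 8 urothelial markers 3 were tested and none passed (edgeR, 2 at an unadjusted p under 0.05, against 24.9% of all genes, and 0 in DESeq2), and the sums over all 8 were 1.05 to 3.29 CPM in TG+ and 0.884 to 1.31 CPM in WT. The smallest p was that of Upk1a, at 0.246 CPM in TG+ and 0.403 CPM in WT. Upk3b went the other way, with a log2 fold change of 1.58 ± 0.66 (SE, edgeR adjusted p = 0.190). It was at 0.246, 0.163 and 0.211 CPM in TG+ 17-51, 17-53 and 17-56 and at 0, 0.120 and 0.0620 CPM in WT 1, 2 and 3. The median log2 fold change of the 3 tested was 1.25. TG+ 17-56 was highest in the keratin gene Krt20, with 1.85 CPM, and in Psca, with 0.826 CPM, where the other animals had at most 0.693 and 0.210 CPM. Krt5 was also highest there, at 0.0527 CPM, against 0.0396 CPM in WT 1. Psca and Krt5 did not pass the filter on low counts, and the rank of Krt5 at such a level is not read. The uroplakin genes went otherwise, and TG+ 17-56 was highest in none of them. Upk1a was lowest of all animals in TG+ 17-56, at 0.228 CPM, just under TG+ 17-53 at 0.233 CPM. Upk1b was at 0.0703 CPM in TG+ 17-56, against 0.308 CPM in TG+ 17-51. Of 8 markers of inner medulla and papilla 7 were tested and none passed (edgeR, 2 at an unadjusted p under 0.05, 1 higher in DESeq2), with a median of -0.13. The sums over all 8, Aqp4 included, were 47.6 to 49.5 CPM in TG+ and 41.1 to 44.6 CPM in WT, so every TG+ sum was above every WT sum. Aqp4 had the smallest p.

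**Figure D4:**
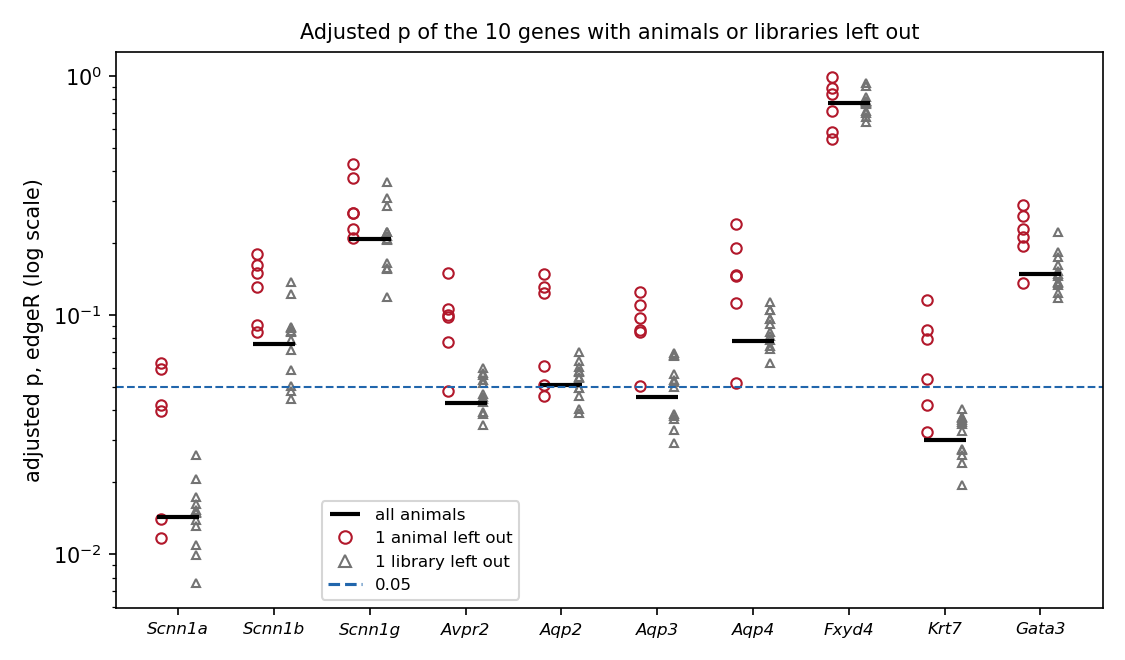
Adjusted p of edgeR (vertical axis, log scale) for the 10 genes with all 6 animals (black bars), with 1 animal left out (red circles, 6 per gene) and with 1 library left out (grey triangles, 12 per gene). The dashed line is 0.05. Scnn1a and Krt7 stay under the line with any 1 library left out, Scnn1a in 4 and Krt7 in 2 of the 6 settings that leave out an animal.

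Beside these tests stand the authors' own values. In the authors' deposited table, whose q-values come from a test over libraries, the log2 fold change was -0.80 for Scnn1a (q = 0.000418), -0.66 for Aqp2 (q = 0.0121), -0.53 for Krt7 (q = 0.00392) and 2.43 for Aqp4 (q = 0.0491). Of the 10 genes 7 had a q under 0.05 in the authors' deposited table, and 3 did not, Scnn1g (q = 0.188), Gata3 (q = 0.152) and Fxyd4 (q = 0.947). The share of all genes with such a q was not computed, so the 7 cannot be weighed against it. With the 12 libraries as replicates, edgeR called 4829 of 18164 genes.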

How the data were processed

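RNA of outer cortex slices was sequenced after an Illumina TruSeq preparation, per the labels' protocols. The genome build was mm9, per the submitters' processing notes. No source used here names the aligner, counting program, annotation release or strand setting. The authors deposited unscaled counts of reads, per the file headers. The authors' RPKM were seen from the values to include about 1 extra read per gene. The deposited log2 fold change is that of mean RPKM over libraries, and log2 RPKM per library were not used further. The deposited fold ratio, mean signal of counts per group, p-values, q-values and test score come from the authors' comparison of libraries, per the file headers.

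The counts of an animal's kidneys were added up and tested with edgeR 4.0.16 in R 4.3.3 (filterByExpr, TMM, robust quasi-likelihood test, Benjamini-Hochberg adjustment over 19564 genes, threshold 0.05). SE was computed as the size of the log2 fold change divided by the root of F. Symbols came from GENCODE M21, which matched 24630 of 27412 IDs and served for exon overlaps. It is on another build than mm9, so promoter windows carry RefSeq GRCm38.p6 coordinates. Related lists were described by counts and medians. Named were all 10 members, and from each list up to 4 called genes by adjusted p or else the gene with the smallest p. The members, lists and alternatives were chosen with earlier results of these data known. The tests were first tested on simulated data with known changes in well-covered genes. The genotype test called 100% of changes of 1 log2 unit and 57% of those of 0.5. The kidney test called 100% and 86%. Genotype changes of 0.5 or less can therefore go uncalled. The simulation gave every gene the same dispersion, so its shares need not hold for each gene in the data. Larger changes also went uncalled there, as those of Aqp2 (-0.65) and Aqp4 (2.51) did. Library totals ran from 4161829 to 43499743 counts. PCR reads are not independent molecules. Alternatives were DESeq2 1.42.0, RLE factors, library size alone, other count filters, libraries as replicates, single kidneys, limma 3.58.1 on log2 RPKM plus a pseudocount of 0.1 or 1, and leaving out each animal or library.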

Additional observations from a re-analysis of the deposited data

Results flagged for a closer look

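Over 6 libraries per genotype, the 10 genes gave 20 sets of values. In 1 of them a library stood far from the others, where chance gives about 1 in 20 for independent values, and the kidneys of an animal are not independent. Aqp2 was at 40.6 CPM in kidney 2 of TG+ 17-51, the shallowest library with 172 reads of the gene, against 52.9 to 58.1 CPM in the other 5 TG+ libraries and 68.3 to 112.8 CPM in the WT libraries. Without that library the log2 fold change of Aqp2 was -0.64 (edgeR adjusted p = 0.0549).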

How the results depend on the processing

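No paired analysis was possible because the animals of the genotypes share no numbers. The count of called principal cell genes, 4 with all animals, was 7 in DESeq2, 9 with the 12 libraries as replicates, 2 with library size alone, 2 in kidney 2 alone and 1 in limma on RPKM with either pseudocount. It ran from 0 to 6 with 1 animal or library left out. Over all genes the count, 733, was 2074 in DESeq2, 4829 with libraries as replicates, 337 in kidney 2 alone, 140 and 114 in limma with pseudocounts of 0.1 and 1, and 11 to 1549 with 1 animal or library left out. Leaving out each library in turn was added after the data were seen, while leaving out kidney 2 of TG+ 17-51 was planned. Fxyd4 changed sign without TG+ 17-56 (0.01) and without WT 3 (0.04), its values running from -0.18 to 0.04 with 1 animal or library left out, and the other 9 genes kept theirs in every setting run. The log2 fold change of Aqp4 was 0.64 in limma with a pseudocount of 1, which shrinks low values. The 9 ratios kept their direction in every setting run, though not their size. Aqp4 and Fxyd4 rest on the fewest reads of the 10 genes, 1883 and 750 in TG+ and 344 and 838 in WT animals, and 3 animals a genotype limit the precision of all 10.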
